A study of Mus musculus with 12 samples.

Results

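The genes described here are 9 markers of the mural and stellate cells of the islet, the cells that wrap its capillaries and lie in its connective tissue. They were taken as listed, by symbol, from 24421 genes counted in bulk RNA sequencing of islets: the pericyte genes Rgs5, Pdgfrb, Cspg4 and Notch3, the contractile and cytoskeletal genes Acta2, Tagln and Des, and the mesenchymal genes Pdgfra and Thy1. All 9 passed the filter on low counts, as did 13583 genes in all. The 12 libraries came from islets of mice fed a high-fat diet (HFD), which the series describes as 6-week HFD-fed. The knockout group, labelled Il22ra1βKO (here BKO, 6 libraries), lacks the interleukin-22 receptor subunit alpha 1 in β cells by its name, and the control group is labelled Ins2Cre (here Cre, 6 libraries). The labels give no strain, sex, floxed allele or Cre line of the BKO mice, and an Ins2-driven Cre acts in insulin-producing cells, so markers of other cells are read here in a tissue where the targeted cell is the β cell. Nothing in the labels ties a library to 1 animal, and p-values therefore measure only how far these libraries spread, which may be technical.

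Pericytes sit on the outside of capillaries and, with vascular smooth muscle cells, make up the mural cells of the vessel wall. Endothelial cells recruit them with platelet-derived growth factor B, which the receptor encoded by Pdgfrb binds, and Notch3 receives signals from ligands on neighbouring endothelial cells. In the islet, pericytes narrow and widen capillaries, and stellate cells, the fibroblast-like cells of the pancreas, take up contractile proteins such as α-smooth muscle actin when activated.

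The libraries held between 10356093 and 12397139 reads on genes. Il22ra1 itself was at 1 to 5 reads per library, 13 reads in BKO and 16 in Cre in all, so the targeted gene does not check the labels at this depth. The islet genes were high in every library, with Ins2 between 54446 and 93700 CPM, the count per 1e+06 reads of the scaled library, and Gcg between 8759 and 24214 CPM. The markers were far lower. Their summed level was between 61.4 and 88.1 CPM in BKO and between 44.4 and 75.6 CPM in Cre, in libraries whose 16 endothelial genes summed to 672 to 971 CPM in BKO and 533 to 761 CPM in Cre. Genes of other islet cells also differed in sign between genotypes. All 9 β-cell genes had a negative fold change (median -0.25, 4 with an unadjusted p under 0.05), and all 7 genes of other endocrine cells a positive one (median 0.36, 5 with an unadjusted p under 0.05). Among them Gcg, the glucagon gene, had a fold of 1.49 (edgeR adjusted p = 0.159). Over all genes tested, 52.8% had a positive fold change. An edgeR unadjusted p under 0.05 came with a positive fold change in 8.7% of all genes and with a negative one in 4.66%. Of 8 duct genes 5 were positive (median 0.51), 4 of them with an unadjusted p under 0.05. Of 11 tested acinar genes 10 were positive (median 0.55). At that p, 0 acinar genes were positive and 1 was negative, and the acinar sum ranged from 306 to 6571 CPM within Cre. All 4 tested macrophage genes were negative (median -0.35, 1 with an unadjusted p under 0.05). The part of these cell types in the marker differences was not tested. In bulk tissue, more cells of a type and more RNA per cell cannot be told apart.

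No marker passed the test between genotypes, and all 9 had a positive log2 fold change of BKO against Cre. The quasi-likelihood test of edgeR, adjusted over all genes by Benjamini-Hochberg, called 0 genes higher (0%) and 0 lower (0%). Of all genes tested, 52.8% had a positive fold change, and 8.7% had a positive and 4.66% a negative fold change with an unadjusted p under 0.05. Among the markers, 9 of 9 were positive and 4 of 9 (Rgs5, Pdgfrb, Acta2 and Thy1) had an unadjusted p under 0.05. The median log2 fold change of the markers was 0.47, against 0.0078 over all genes. It was 0.29 without BKO-5 and 0.75 without Cre-5. DESeq2 called 1.24% of genes higher and 0.398% lower, and 2 markers, Rgs5 and Thy1, were among the higher ones. The shift was not particular to the markers: all 16 endothelial genes were also positive, with a median of 0.44. Of these, 14 had an edgeR unadjusted p under 0.05, and DESeq2 called 9 higher.

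**Figure D1:**
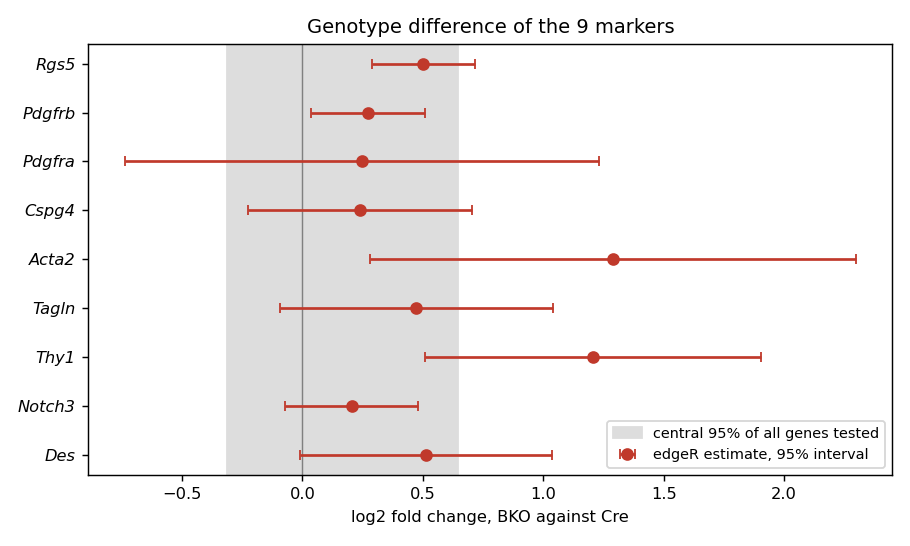
Log2 fold change of BKO against Cre for each of the 9 markers (points) with its 95% interval from edgeR (bars), on the x axis; the grey band spans the central 95% of the fold changes of all 13583 genes tested. All 9 points lie above 0, and the intervals of Rgs5, Pdgfrb, Acta2 and Thy1 do not reach 0.

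Rgs5, a regulator of G-protein signalling and one of the most used pericyte markers, was the only marker whose groups did not overlap. Its level in the BKO libraries had a lowest value of 13.9 CPM, a median of 15.1 CPM and a highest value of 18.8 CPM, and the Cre libraries had 9.53, 11.1 and 13.2 CPM. Each of the 6 BKO libraries was above the highest Cre library; 0.331% of all genes tested showed this separation. Group means were 15.8 ± 1.86 CPM for BKO and 11.2 ± 1.33 CPM for Cre (SD, n = 6 each). Rgs5 had a log2 fold change of 0.50 ± 0.10 (SE; 95% interval 0.29 to 0.72), a fold of 1.42, with an edgeR unadjusted p of 0.000117 and an adjusted p of 0.121. That p was the ninth smallest of all genes. With DESeq2 the adjusted p was 0.00704, and edgeR without BKO-4 or without Cre-5 gave adjusted p of 0.0252 and 0.0389. Over 21 alternatives, leaving out the fit with a replicate block that is given with the limits of the processing, its adjusted p ranged from 0.00704 to 0.347, the latter without BKO-2. The gene spans chr1:169655501-169695813 (mm10, plus strand) and no other annotated gene overlaps it. The 250 bases before its RefSeq start (GRCm38.p6, chr1:169655251-169655500, plus strand) are shown because this gene separated the groups. No base is in capitals, since neither of the motifs searched here was in this window:
Rgs5 promoter: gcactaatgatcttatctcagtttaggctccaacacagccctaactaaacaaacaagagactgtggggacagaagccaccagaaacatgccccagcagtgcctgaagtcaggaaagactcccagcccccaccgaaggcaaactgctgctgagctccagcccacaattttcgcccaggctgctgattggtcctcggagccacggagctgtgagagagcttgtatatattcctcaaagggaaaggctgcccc

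Pdgfrb, the receptor that brings pericytes to growing capillaries, had a smaller difference and overlapping groups. Its lowest, median and highest levels were 16.8, 21.8 and 25.1 CPM in BKO and 15.1, 16.9 and 21.3 CPM in Cre. Of the BKO libraries, 3 were above the highest Cre library, which was Cre-5, and BKO-1 was below the Cre mean. Pdgfrb had a log2 fold change of 0.27 ± 0.11 (SE; 95% interval 0.034 to 0.51), with an edgeR unadjusted p of 0.0275 and an adjusted p of 0.307. Pdgfrb spans chr18:61045150-61085061 with no overlapping gene.

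Cspg4 encodes NG2, a proteoglycan of the pericyte surface. Its levels were 3.84, 6.33 and 7.18 CPM (lowest, median, highest) in BKO and 2.83, 4.49 and 8.48 CPM in Cre. The groups overlapped throughout, and the highest library of all was Cre-5. Cspg4 had a log2 fold change of 0.24 ± 0.22 (SE; 95% interval -0.23 to 0.71, edgeR adjusted p = 0.708). It was 0.47 without Cre-5 and 0.12 without Cre-4. Notch3, the Notch receptor of mural cells, was at 7.41, 9.54 and 12.7 CPM in BKO and at 7.15, 8.62 and 9.03 CPM in Cre. Its Cre libraries lay close together, with an SD of 0.698 CPM against 2.01 CPM in BKO, and 3 BKO libraries were above all of them. The log2 fold change of Notch3 was 0.20 ± 0.13 (SE; 95% interval -0.071 to 0.48, edgeR adjusted p = 0.545) and 0.0998 without BKO-5. Cspg4 lies at chr9:56865033-56899870 with no overlapping gene. Notch3 lies at chr17:32120820-32166852 and overlaps Gm17276 on the opposite strand.

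Acta2 encodes α-smooth muscle actin, the contractile actin of smooth muscle and of activated stellate cells. It had the highest fold change of the 9 and, relative to its mean, the widest BKO spread, with a coefficient of variation of 74.9%. Its levels were 1.01, 2.28 and 7.18 CPM (lowest, median, highest) in BKO and 0.497, 1.00 and 2.30 CPM in Cre. The BKO-5 library alone, with 76 reads, was far above the others, which held 6 to 34 reads. Group means were 2.93 ± 2.19 CPM for BKO and 1.19 ± 0.714 CPM for Cre (SD, n = 6 each). Acta2 had a log2 fold change of 1.29 ± 0.47 (SE; 95% interval 0.28 to 2.30, edgeR unadjusted p = 0.0160, adjusted p = 0.261). Without BKO-5 it was 0.79 (edgeR adjusted p = 0.443), and over 20 alternatives, again leaving out the replicate block, the adjusted p ranged from 0.116 to 0.473. Acta2 lies at chr19:34241090-34255590 on the minus strand. Its coding sequence is close to those of the other actin genes, and how reads that align to several of them were counted was not tested here; the smooth muscle γ-actin gene Actg2 held 9 reads over all libraries.

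Tagln encodes transgelin, an actin-binding protein of smooth muscle. It was at 2.84, 4.55 and 7.37 CPM (lowest, median, highest) in BKO and at 2.04, 2.87 and 6.26 CPM in Cre. BKO-5 and Cre-5 were the highest libraries of their groups, and the groups overlapped. The log2 fold change of Tagln was 0.47 ± 0.27 (SE; 95% interval -0.093 to 1.04, edgeR adjusted p = 0.483), and it was 0.29 without BKO-5 and 0.75 without Cre-5. Des encodes desmin, the intermediate filament of muscle cells that pericytes and stellate cells also carry. Its levels of 2.93, 4.48 and 6.81 CPM in BKO and 1.67, 2.92 and 5.68 CPM in Cre showed the same 2 libraries at the top. All 6 BKO libraries of Des were above the Cre median. The log2 fold change of Des was 0.51 ± 0.25 (SE; 95% interval -0.012 to 1.04, edgeR adjusted p = 0.389). Tagln (chr9:45929619-45936058) overlaps Gm48529 and Pcsk7 on the opposite strand, and 1349 of its 1988 exon bases are shared with exons of these genes. Pcsk7 is a counted gene, and it shares 108 of these bases. Des (chr1:75360329-75368579) shares 220 exon bases with the counted gene Gm15179. No source used here gives the strand setting of the counting, so reads of the shared bases cannot be assigned with certainty.

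Thy1, a surface glycoprotein of fibroblasts that T lymphocytes and neurons also carry, was the sparsest marker, with 3 to 39 reads per library. It was at 1.19, 2.32 and 3.36 CPM (lowest, median, highest) in BKO and at 0.265, 1.10 and 1.65 CPM in Cre. Of the BKO libraries, 5 were above the highest Cre library, and the sixth, BKO-3, was above the Cre mean. Group means were 2.33 ± 0.755 CPM for BKO and 1.00 ± 0.515 CPM for Cre (SD, n = 6 each). Thy1 had a log2 fold change of 1.21 ± 0.33 (SE; 95% interval 0.51 to 1.90), a fold of 2.31, with an edgeR unadjusted p of 0.00193 and an adjusted p of 0.156. DESeq2 gave an adjusted p of 0.0451, the lowest of 20 alternatives other than the replicate block, and the highest was 0.37. Counting error alone would give a coefficient of variation of 28.9% at the Cre depth, where 51.3% was measured. The lowest library, Cre-4, held 3 Thy1 reads, the floor used for a gene. T lymphocyte genes were sparse: the 8 listed ones summed to 3.84 to 5.12 CPM in BKO and 3.06 to 4.30 CPM in Cre, and Cd3e, Cd3g and Cd5 had at most 3 reads in any library. Lck, a T lymphocyte kinase, was the only one of them with enough reads to be tested. It averaged 3.79 CPM in BKO and 2.90 CPM in Cre and made up most of these sums. Over all libraries Lck held 460 reads, and no other gene of the list held more than 30. Lck had a log2 fold change of 0.39 ± 0.17 (SE, edgeR unadjusted p = 0.0346, adjusted p = 0.331), with 6 of 6 BKO libraries above the Cre mean. Which cells the Lck reads came from was not tested, nor was the part of T lymphocytes in the Thy1 difference. Schwann cell genes summed to 149 to 185 CPM in BKO and 169 to 187 CPM in Cre, and of 6 tested 3 were positive. Thy1 spans chr9:44043384-44048579 with no overlapping gene.

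Pdgfra encodes the other PDGF receptor, which marks fibroblasts and stellate cells more than pericytes, and 1 control library set its comparison. Its levels were 2.10, 3.60 and 5.48 CPM (lowest, median, highest) in BKO and 1.46, 1.91 and 9.30 CPM in Cre. The highest value was that of Cre-5, with 113 reads; the other 5 Cre libraries held 17 to 27 reads. All 6 BKO libraries were above the Cre median and 3 above the Cre mean. Pdgfra had a log2 fold change of 0.25 ± 0.46 (SE; 95% interval -0.74 to 1.23, edgeR adjusted p = 0.88). Without Cre-5 it was 0.99 (edgeR adjusted p = 0.0595, the lowest of 21 alternatives other than the replicate block), and without BKO-2 it was 0.084 (edgeR adjusted p = 0.974, the highest). Pdgfra lies at chr5:75152292-75198215 and overlaps Gm42802, Gm42803 and Mir7025.

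**Figure D2:**
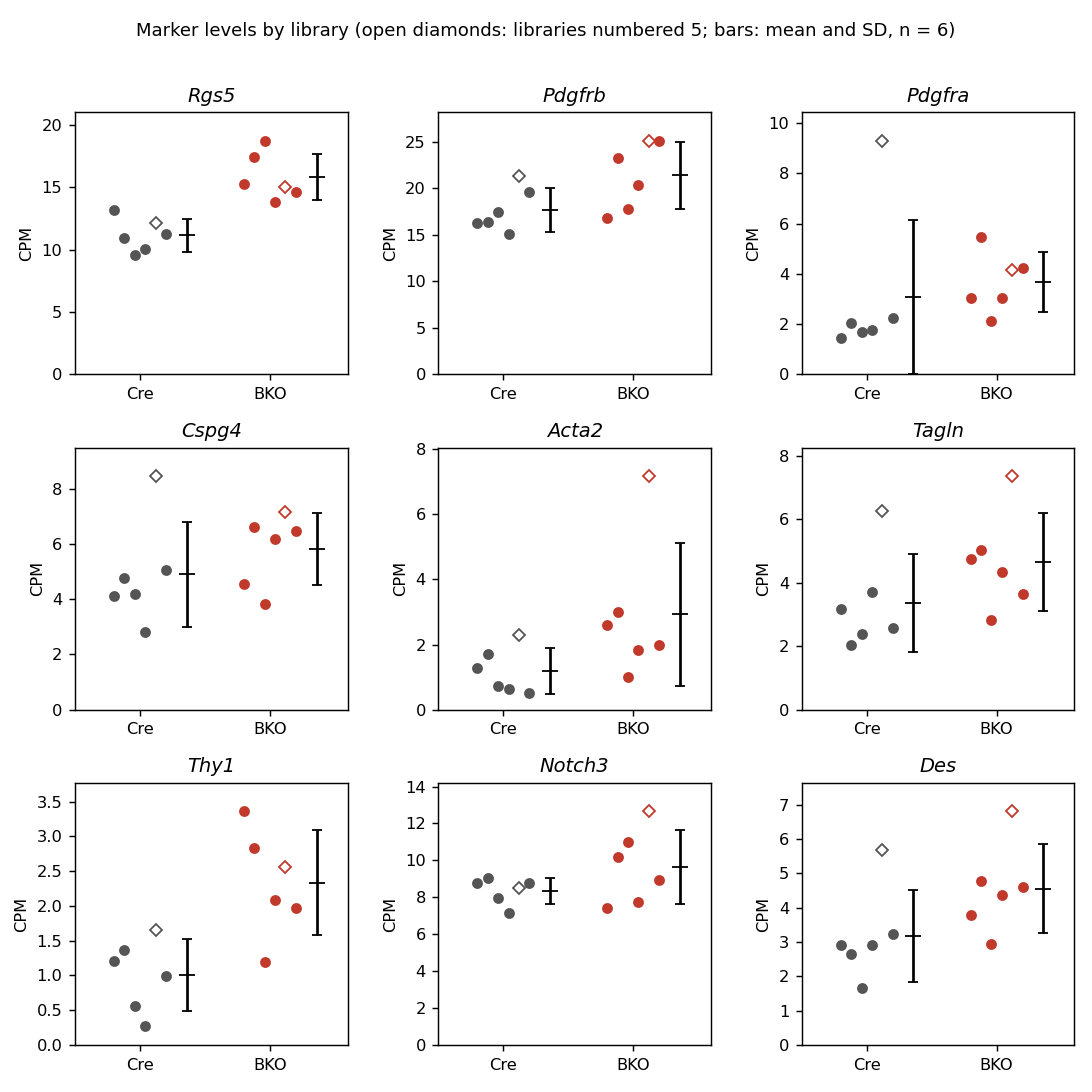
Level of each marker in CPM (TMM-scaled; y axes start at 0) in every library of the Cre and BKO groups (x axis); points are libraries, open diamonds the libraries numbered 5, and bars the mean and SD of 6. The Rgs5 groups do not overlap, while Cre-5 is the highest Pdgfra library and BKO-5 the highest Acta2 library.

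A few libraries were the highest or lowest of their group for several markers. Cre-5 was the highest Cre library for 7 of the 9 markers, all but Rgs5 and Notch3, and BKO-5 was the highest BKO library for 6. BKO-3 was the lowest BKO library for 6 markers and the highest for Rgs5. Cre-4 was the lowest Cre library for 4 markers. Other connective tissue and vessel genes stood high in the same libraries. The 23 stellate and fibroblast genes summed to 265 CPM in Cre-5 and to 135 to 187 CPM in the other Cre libraries, and to 272 CPM in BKO-5, the highest of its group. The endothelial sum was 761 CPM in Cre-5 and 971 CPM in BKO-5, each the highest of its group. The acinar sum was 1311 CPM in Cre-5, where the Cre libraries ranged from 306 to 6571 CPM. With both libraries numbered 5 left out, an alternative chosen after their levels were seen, 9 of 9 markers still had a positive fold change. Their median was then 0.56, that of Pdgfra was 0.94 and that of Acta2 1.09, and no gene was called.

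Levels can be compared between the markers only per length, here as CPM per kilobase of exon. Over the 12 libraries, Pdgfrb was the most abundant at 3.57 ± 0.639, followed by Rgs5 at 2.97 ± 0.633 and Tagln at 2.02 ± 0.816 (SD, n = 12). Notch3 (1.11 ± 0.196), Des (1.03 ± 0.385) and Acta2 (0.938 ± 0.821) came next. Thy1 (0.557 ± 0.310), Cspg4 (0.449 ± 0.137) and Pdgfra (0.337 ± 0.223) were the least abundant. By group means, the order differed between genotypes for some markers. Acta2, at 1.33 in BKO and 0.541 in Cre, was above Des (1.21) and Notch3 (1.19) in BKO and below both in Cre. BKO-5 was at 3.27 for Acta2, and by BKO medians Acta2 (1.04) was below Des (1.19) and Notch3 (1.18), as in Cre. Thy1 was above Cspg4 in BKO (0.779 and 0.487) and below it in Cre (0.335 and 0.412). Every pair of neighbours in the order over all libraries overlapped within 1 SD. Within a library, Pdgfrb was above Rgs5 in 10 of 12 and Rgs5 above Tagln in 10 of 12, while Notch3 was above Des in 6 of 12.

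Apart from genotype, most markers varied together, while Rgs5 and Notch3 were more loosely tied to the rest. With each genotype's mean removed, Pearson's r of log2 CPM over the 12 libraries was positive in 35 of the 36 pairs of markers, with a median of 0.47. The highest values were between Pdgfra and Cspg4 (0.85), Pdgfrb and Cspg4 (0.85) and Tagln and Des (0.85). The 8 pairs that include Rgs5 had a median of 0.090 and reached 0.48 with Notch3, against a median of 0.56 for the 28 other pairs. That was also the highest value of Notch3, which had 0.095 with Tagln, 0.10 with Thy1 and 0.12 with Pdgfra. These coefficients are descriptions over libraries that share depth and tissue makeup. They rest in part on the libraries numbered 5: over the other 10 libraries the median of the 36 pairs was 0.23, that of the pairs with Rgs5 -0.030 and that of the pairs without it 0.32. There the value for Tagln and Des was 0.54 and that for Tagln and Notch3 -0.56, while Pdgfrb and Cspg4 stayed at 0.82 and Rgs5 and Notch3 were at 0.76. With the mean of the endothelial genes, r over the 12 libraries was 0.85 for Des, 0.81 for Cspg4 and 0.78 for Pdgfrb, and 0.40 for Rgs5. Among the means of the cell type lists, Acta2 had its highest r, 0.86, with that of the duct genes. BKO-5, far above the other libraries for Acta2, was among the 12 libraries, and this r was not computed without it.

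**Figure D3:**
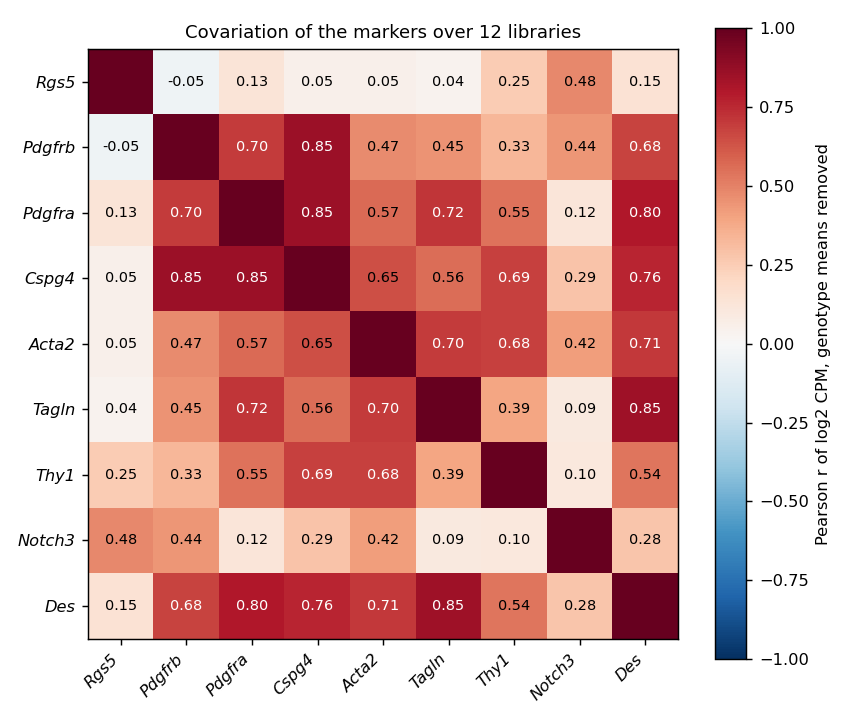
Pearson's r of log2 CPM between each pair of the 9 markers (rows and columns) over 12 libraries after removing each genotype's mean; colour and number give r. The Rgs5 row, with values from -0.05 to 0.48, and the Notch3 row, with values up to 0.48, are paler than the rest.

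The genes whose pattern was most like that of each marker were found by the same r over 12 libraries, among 12073 candidates (12074 for Thy1). Cspg4 was closest to the collagen gene Col1a2 (r = 0.98), followed by Col5a1 (0.95) and the basement membrane proteoglycan Hspg2 (0.94). Pdgfra was closest to Tns1, a focal adhesion protein gene (0.96), and Notch3 to Dtx4, a Deltex family ubiquitin ligase (0.96). For Des the closest was Ephb4, an ephrin receptor of vein endothelium (0.91), and Ednra, the endothelin receptor of mural cells, was also among the closest (0.88). For Pdgfrb, Vsig10l (0.91) and the matrix protein Sparc (0.91) led. Rgs5 was closest to Dek (0.89), Acta2 to Emp2 (0.93), Tagln to Cyth3 (0.91) and Thy1 to Ptk7 (0.89).

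Set beside the endothelial genes of the same library, the markers had differences between genotypes of either sign, and for 4 of them the difference was near 0. The mean log2 CPM of the 16 endothelial genes was 5.21 ± 0.202 in BKO and 4.76 ± 0.205 in Cre (SD, n = 6 each), a difference of 0.45, with all 6 BKO libraries above the Cre mean. Pecam1, an endothelial junction protein, averaged 112 ± 11.8 CPM in BKO libraries and 84.4 ± 10.1 CPM in Cre libraries, and Cdh5 at 122 ± 19.6 and 92.9 ± 13.3 CPM. Log2 CPM of Rgs5 minus the endothelial mean was -1.19 ± 0.259 in BKO and -1.22 ± 0.125 in Cre, a difference of 0.032, where its log2 CPM alone differed by 0.48. The same quantity differed by -0.00085 for Tagln, -0.0021 for Pdgfra and 0.037 for Des. The Pdgfra value rested on Cre-5, at -1.82 where the other Cre libraries were between -3.89 and -3.26; without Cre-5 it was 0.27. Without Cre-5, Tagln was at 0.11, Des at 0.13 and Rgs5 at -0.015. Over all libraries, the difference was -0.19 for Pdgfrb, -0.19 for Cspg4 and -0.28 for Notch3, with 1 of 6 BKO libraries above the Cre mean for each. It was 0.48 for Acta2 and 0.50 for Thy1, with 5 of 6 BKO libraries above the Cre mean. The Acta2 value fell to 0.26 without BKO-5, and the lowest Thy1 value with 1 library left out was 0.35, without BKO-1. These relative levels were not tested, and the part of endothelial abundance in the marker differences was not tested either.

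**Figure D4:**
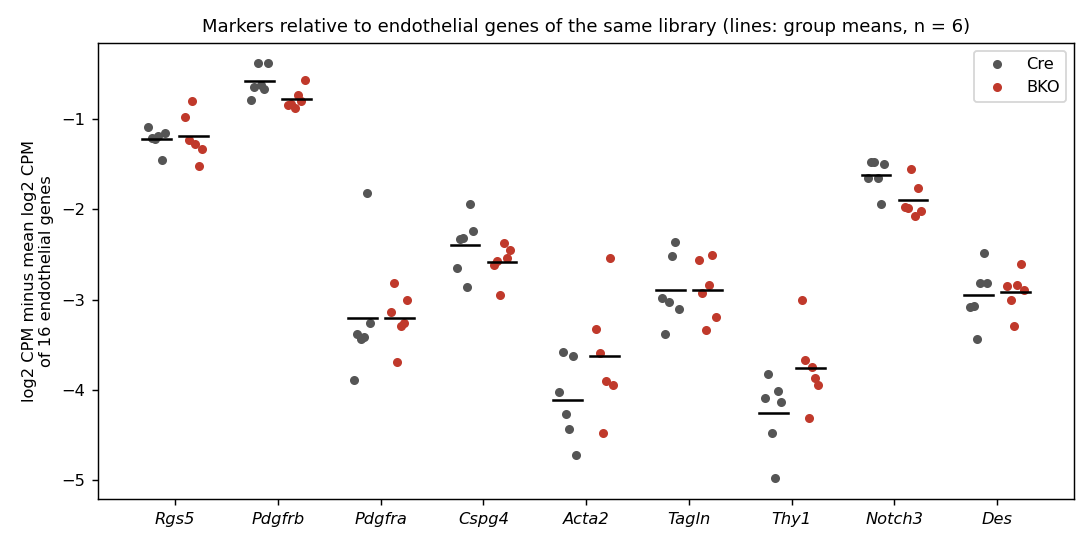
Log2 CPM of each marker (x axis) minus the mean log2 CPM of 16 endothelial genes of the same library (y axis); points are libraries, black lines the means of 6. The Cre and BKO means of Rgs5, Pdgfra, Tagln and Des nearly coincide, for Pdgfra through the single high library Cre-5; those of Acta2 and Thy1 are higher in BKO, and those of Pdgfrb, Cspg4 and Notch3 are lower.

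Other pericyte genes had positive and negative fold changes. Of the 15 listed, 12 were tested, 9 were positive and 5 had a positive fold change with an unadjusted p under 0.05, with a median of 0.34 and no call by edgeR. Over all genes tested, 52.8% were positive, and 8.7% were positive with an edgeR unadjusted p under 0.05. Ednra averaged 7.34 ± 1.02 CPM in BKO libraries and 5.02 ± 1.06 CPM in Cre libraries (SD, n = 6 each), which gave a log2 fold change of 0.55 ± 0.15 (SE, edgeR adjusted p = 0.156; DESeq2 adjusted p = 0.0478; range over 21 alternatives other than the replicate block 0.04 to 0.363). Mcam had a log2 fold change of 0.38 ± 0.11 (edgeR adjusted p = 0.171) and Rgs4, a relative of Rgs5, of 0.35 ± 0.10 (edgeR adjusted p = 0.179). Rgs4 averaged 674 CPM in BKO and 530 CPM in Cre and made up most of the summed level of the list. Pdgfrb, the marker with the highest CPM, averaged 21.4 CPM in BKO and 17.7 CPM in Cre. Which islet cells the Rgs4 reads came from was not tested, so its fold change cannot be assigned to pericytes. The potassium channel subunits Kcnj8 and Abcc9, which form the channel typical of pericytes, were at -0.12 ± 0.29 and -0.076 ± 0.23. Higd1b had at most 4 reads in a library and Tbx18 none.

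Several smooth muscle genes were sparse in these islets. Of 18 listed, 11 were tested and all 11 were positive, with a median of 0.18, and 3 had an unadjusted p under 0.05. The shares over all genes tested were 52.8% positive, and 8.7% positive with an edgeR unadjusted p under 0.05. Smtn, a protein of contractile smooth muscle, had a log2 fold change of 0.33 ± 0.12 (edgeR adjusted p = 0.247) and the tropomyosin gene Tpm1 of 0.18 ± 0.074 (edgeR adjusted p = 0.303). Srf, the transcription factor that acts on these genes through CArG boxes, averaged 63.2 ± 10.4 CPM in BKO libraries and 56.1 ± 3.96 CPM in Cre libraries (SD, n = 6 each), with a log2 fold change of 0.17 ± 0.091 (edgeR adjusted p = 0.44). Its partner Myocd had at most 3 reads in a library, and Cnn1 and Lmod1 at most 4 and 8. Skeletal muscle genes summed to 2.09 to 3.03 CPM in BKO and 2.38 to 3.83 CPM in Cre, and the defining genes Myh4 and Tnnt3 were at 0 in all libraries.

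The CArG box was searched for in the 250 bases before the RefSeq start, on both strands. It was present in 1.47% of all 32851 promoter windows, in 0 of the 6 markers with a window, and in 2 of the 14 smooth muscle genes with one, Myl9 and Srf. A CArG-like box with 1 mismatch, searched after the first result was seen, was in 17.5% of all windows, in 2 of the 6 markers and in 5 of the 14 smooth muscle genes. TGGGAA, the core of the site of RBPJ, through which Notch acts, was in 21.6% of all windows and in 1 of the 6 markers, Acta2, where it overlaps the second of the boxes below. The boxes of Acta2 are shown beside exact ones of Myl9 and Srf, each as 30 bases with the box in capitals (GRCm38.p6). GENCODE starts Acta2 further upstream than RefSeq, so both of its stretches lie in the first exon of that annotation. They are chr19:34255438-34255467 and chr19:34255388-34255417 (minus strand), chr2:156775293-156775322 (plus strand), and chr17:46556225-46556254 and chr17:46556205-46556234 (minus strand):
Acta2, first CArG-like box: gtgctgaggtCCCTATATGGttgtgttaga
Acta2, second CArG-like box: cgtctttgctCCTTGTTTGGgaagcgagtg
Myl9, CArG box: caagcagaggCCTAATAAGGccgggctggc
Srf, first CArG box: ctggggctcgCCATATAAGGagcggcctcg
Srf, second CArG box: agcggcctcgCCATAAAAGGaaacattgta

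Stellate cell and fibroblast genes differed in sign among themselves. Of 23 listed, 19 were tested, 15 were positive and 4 negative, with a median of 0.29. An edgeR unadjusted p under 0.05 came with a positive fold change in 4 and with a negative one in 1. Over all genes tested, 52.8% were positive, and the shares at that p were 8.7% positive and 4.66% negative. Lum, a collagen-binding proteoglycan, averaged 2.88 ± 0.858 CPM in BKO libraries and 1.30 ± 0.810 CPM in Cre libraries, with a log2 fold change of 1.14 ± 0.33 (SE, edgeR adjusted p = 0.169). Fn1, fibronectin, was at 0.75 ± 0.27 and Dpt, dermatopontin, at 0.71 ± 0.28. Dcn, with more reads than these, averaged 19.7 ± 6.55 CPM in BKO libraries and 10.5 ± 6.65 CPM in Cre libraries. Its log2 fold change was 0.91 ± 0.37 (SE, edgeR unadjusted p = 0.0320, adjusted p = 0.323), and that of Vim was 0.51 ± 0.24 (edgeR adjusted p = 0.395). The main fibrillar collagens were closer to 0, with Col1a1 at 0.19 ± 0.34, Col1a2 at 0.34 ± 0.27 and Col3a1 at -0.089 ± 0.26. Pi16, a fibroblast gene, was at -0.48 ± 0.21. Lrat, the retinol-storing enzyme of quiescent stellate cells, had at most 2 reads in a library and Gfap at most 7. Of the 5 mesothelial genes, 4 had at most 3 reads in any library.

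On the ligand side, Pdgfb, which endothelial cells release to Pdgfrb on pericytes, averaged 36.2 CPM in BKO libraries and 26.1 CPM in Cre libraries (n = 6 each). Its log2 fold change was 0.47 ± 0.15 (SE, edgeR adjusted p = 0.205). Pdgfa and Pdgfd were at 0.052 ± 0.081 and 0.28 ± 0.29. Among the receptor's signalling adaptors, Gab1 was at 0.54 ± 0.15 (edgeR adjusted p = 0.156) and the phosphatase Ptpn11 at -0.17 ± 0.090. Of the 14 tested genes of this axis 5 were positive, with a median of -0.0099, close to that of all genes.

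Notch and TGF-β genes were mostly positive. Of 19 Notch genes 17 were positive, with a median of 0.24, and 7 had a positive fold change with an unadjusted p under 0.05. Over all genes tested, 52.8% were positive, and 8.7% were positive with an edgeR unadjusted p under 0.05. The 16 endothelial genes had a median of 0.44, and their part in the values of the Notch and TGF-β lists was not tested. Notch4, the Notch receptor of endothelium, was at 0.29 ± 0.099 (edgeR adjusted p = 0.222), and the Fringe enzymes Lfng and Mfng, which modify Notch receptors, were at 0.67 ± 0.24 and 0.52 ± 0.21. The ligand Jag1 was at 0.26 ± 0.11, and the mural Notch target Heyl at 0.24 ± 0.24. Of 15 TGF-β genes 14 were positive, with a median of 0.32, and 7 had a positive fold change with an unadjusted p under 0.05. Ltbp1, which holds latent TGF-β in the matrix, averaged 4.65 ± 2.51 CPM in BKO libraries and 1.86 ± 0.663 CPM in Cre libraries, with a log2 fold change of 1.32 ± 0.36 (SE, edgeR adjusted p = 0.168). DESeq2 gave it an adjusted p of 0.0288, the lowest of 21 alternatives other than the replicate block, and the highest was 0.376. The inhibitor Smad7 was at 0.36 ± 0.11 and Acvrl1, an endothelial receptor of the TGF-β family, at 0.36 ± 0.11. No gene of these lists passed edgeR's test over all genes.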

How the data were processed

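Per the labels' protocols, total RNA was extracted from islets with TRIzol, and Vazyme kit libraries were read in pairs on a NovaSeq. The submitters' processing notes name HISAT2 (2.0.5), HTSeq and mm10; no source used here names the annotation or the strand setting of the counting. Deposited files of the single samples hold raw read counts per gene symbol, and 5 summary lines with 34.7% to 45.8% of the reads of a library were kept out. A series-wide table, whose columns are rescaled to 1 common sum, was not used.

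edgeR 4.0.16 (R 4.3.3) was run on the counts of all 12 libraries: filterByExpr on genotype, TMM scaling, glmQLFit with robust shrinkage and glmQLFTest, BKO against Cre, with Benjamini-Hochberg adjustment at 0.05. Intervals of fold changes are 95% intervals from this fit. CPM uses TMM-scaled library sizes, log2 CPM adds 0.5, and exon lengths and positions come from GENCODE M21 (GRCm38, which is mm10). A floor of 3 reads was between 0.238 and 0.284 CPM. Such floors and coefficients of variation from counts cover counting error only. Pairs of replicates differed by more than sampling noise (chi-square over degrees of freedom 5.08 to 30.0), so each was counted once. The fit was tested on simulated data.

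Alternatives were upper-quartile or RLE scaling, TMM computed without acinar genes, other count filters, DESeq2 1.42.0, limma-voom (limma 3.58.1), shrinkage that is not robust, a block for the replicate number, and each library left out. The markers and lists were chosen with earlier results of these data known. Genes named beside the markers are, in each list, the 3 with the smallest p and a mean log2 CPM of at least 1, and the 3 genes most like each marker. Kcnj8, Abcc9, Higd1b, Tbx18, Myocd, Cnn1, Lmod1, Col1a1, Col3a1, Dcn, Vim, Pi16, Lrat, Gfap, Pdgfa, Pdgfd, Jag1 and Heyl were added after their values were seen. Promoter sequences are from RefSeq (GRCm38.p6); 6 of the 9 markers matched. Not every gene that the rule on likeness selects is reported here.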

Additional observations from a re-analysis of the deposited data

Results flagged for a closer look

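Among 18 sets of 6 libraries (9 markers in 2 genotypes), 2 held a library far from the others, judged by its gap to the nearest library as a share of the whole range (Dixon's test at 95%). Chance gives about 1 in 20 such sets. Pdgfra in Cre-5 was at 9.30 CPM, with the next Cre library at 2.24 CPM and a gap of 0.901 of the range. Acta2 in BKO-5 was at 7.18 CPM, with the next BKO library at 3.00 CPM and a gap of 0.677 of the range.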

How the results depend on the processing

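Each of the 9 markers kept a positive fold change under every alternative that tested it; Acta2 and Thy1 were not tested where 10 reads were asked of every library. With 1 library left out, 9 of 9 stayed positive, their median ranged from 0.29 to 0.75, and edgeR called between 0 and 135 genes higher and between 0 and 127 lower, the most without BKO-4. DESeq2 called 169 genes higher and 54 lower, and limma-voom called 0. At a threshold of 0.1 edgeR still called 0. The labels do not say that replicate numbers pair libraries, and for that reason they were not taken as pairs. Of the 6 same-numbered pairs, 4 had a correlation of deviations over 0.1 (range -0.079 to 0.28). Of 6 BKO libraries, 4 matched their own number best, a hint from the data and not from the design. These values do not decide whether the libraries were paired. With the replicate number as a block edgeR called 292 genes higher and 72 lower of 13583 tested. Among the higher ones were Rgs5 (adjusted p = 0.0224), Thy1 (0.0265), Acta2 (0.0158), Ednra (0.0265) and Ltbp1 (0.0220). The calls of this fit were not particular to the markers, as it also called Pecam1 (0.00556), Gcg (0.00567) and Pdgfb (0.00947) higher. Without BKO-4, edgeR also called Gab1 (adjusted p = 0.0395), Ltbp1 (0.0376) and Smad7 (0.0415), and without Cre-5 Ednra (0.04) and Lum (0.034). Depth limits Thy1 and Acta2 most.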
